A study of Homo sapiens with 16 samples.

Results

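Glycolysis, glucose transport and the fate of pyruvate were followed through 33 genes while H9 human embryonic stem cells were differentiated with activin A. The genes were taken by name from the textbook pathway, with earlier results of these data known. For each gene the probe set with the highest mean was used, probe sets with several gene symbols included. Of the 33 genes, 31 had a probe set among the 18495 of the deposited table. The chosen probe set carried 1 symbol for 28 genes. For 3 genes it was shared with another gene: SLC2A3 with SLC2A14, PGAM1 with PGAM4 and PDK2 with SAMD14, so those values may come from either gene. SLC16A1 and SLC16A3, which carry lactate and pyruvate across the plasma membrane, had no probe set under their symbols and were not analysed here.

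Glycolysis splits glucose into pyruvate in the cytosol. Transporters bring glucose in, hexokinase traps it as a phosphate, phosphofructokinase commits it to the pathway, and the later enzymes recover energy as ATP. Pyruvate is then either reduced to lactate by lactate dehydrogenase or oxidised by the mitochondrial pyruvate dehydrogenase complex, which pyruvate dehydrogenase kinases switch off by phosphorylation. Pluripotent stem cells are known for high glycolytic flux and lactate output, and several of these genes are known targets of hypoxia-inducible factors and of MYC proteins.

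RNA came from H9, 1 established line, at passages 40 to 50. At day 0 (4 biological samples on 5 arrays) the cells were undifferentiated and grew on mouse feeder cells or Matrigel in medium conditioned by such feeders, with 8 ng/ml of basic FGF. At days 1 (3 samples), 3 (3 samples) and 5 (4 samples on 5 arrays) they had been in RPMI-1640 with activin A at 100 ng/ml, a ligand that acts through the nodal pathway, while serum was raised through 0, 0.2 and 2%. Medium, serum, activin and time all differ between day 0 and the later days, and basic FGF is given for day 0 only. These cannot be told apart in those comparisons. Days 1 and 5 share the base medium and activin. Time and the serum steps passed through differ between them and cannot be told apart either. All samples were hybridised to Human Exon 1.0 ST arrays after depletion of ribosomal RNA. Values below are log2(intensity + 1), technical arrays of a sample were averaged, and differences are log2 differences ± SE from a limma fit over all probe sets with Benjamini-Hochberg adjustment at 0.05. The labels do not say whether biological replicates were separate cultures, so p-values measure only the spread between these samples. In bulk RNA, fewer cells of a type and less RNA per cell cannot be told apart.

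Array medians ran from 245.1 to 246.3 intensity units. The mean of 8 definitive endoderm markers was 11.2 to 12.1 at day 5 and 6.70 to 7.89 at day 0, and the mean of 7 pluripotency markers was 10.5 to 11.3 at day 5 and 12.1 to 12.6 at day 0, as the labels have it. Day 3 replicate 2 went against its label. Its endoderm markers averaged 7.23, against 11.2 and 11.6 in the other day 3 samples, and its 3 primitive streak markers averaged 6.35, against 10.9 and 10.6. Its median correlation with its group was 0.829, and that of day 5 replicate 2 was 0.858, against 0.901 to 0.962 in the other 12 samples. Several results that rest on these samples are given with and without them. Not all are: SLC2A1, HK1, GPI, HK2 and PFKP had their lowest value in day 5 replicate 2. PFKP is also given without day 5 replicate 4. The other differences below for these genes are those with all samples only, so their falls at day 5 lean on that sample. Leaving out day 3 replicate 2 leaves 2 samples at day 3, and calls there over all probe sets rose from 5 to 590. With day 5 replicate 2 also left out, there were 1057 at day 3. Calls then rose from 1 to 122 at day 1, 1009 to 1835 at day 5 and 616 to 1503 in day 5 against day 1. Passes that single genes gained in these fits came with those rises. The means of 5 fibroblast markers were 7.20 to 8.48 at day 5 and 6.85 to 7.35 at day 0, where the labels allow mouse feeder cells. None of the 5 was at 0 in any sample. The 2 red blood cell markers also averaged 5.54 to 6.33, so a value above 0 does not show expression. The fibroblast markers did not move together: at day 5 against day 0 LUM differed by 4.57 (adjusted p = 0.00241) and COL1A1 by -1.80 (adjusted p = 0.184). Their part in the results was not tested.

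At day 5, 4 of the 31 measured genes passed the test against day 0. ALDOC, the brain-type aldolase, fell 2.88-fold, PFKFB2, which makes an activator of phosphofructokinase, fell 2.22-fold, and PDK3, a pyruvate dehydrogenase kinase, fell 2.32-fold. PDK1, another kinase of the same complex, rose 2.84-fold (limma adjusted p = 0.0497). The PDK1 call was lost in 12 and the PDK3 call in 6 of the 14 fits that left out a sample. The remaining 27 genes did not pass, and for 16 of the 31 the estimated difference was under 0.5 on the log2 scale in either direction. Of the 31 genes, 21 had a lower and 10 a higher mean at day 5 than at day 0.

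The 4 calls at day 5 were 12.9% of the measured genes, and 5.46% of all 18495 probe sets were called in the same comparison. The groups did not overlap for 9 genes, 1 higher and 8 lower at day 5, which is 29% of them against 14.6% of all probe sets. The median difference of the 31 genes was -0.26, against -0.02 over all probe sets. No gene passed at day 1, where 0.00541% of all probe sets (1 of 18495) were called by limma, and 2 genes had an unadjusted p under 0.05. The groups did not overlap at day 1 for 6 genes, 1 higher and 5 lower, or 19.4% against 11.5% of all probe sets. No gene passed at day 3, where 0.027% of all probe sets were called by limma, and 4 genes had an unadjusted p under 0.05. At day 3 the groups did not overlap for 5 genes, 1 higher and 4 lower, or 16.1% against 9.82% of all probe sets. The median difference was -0.05 at day 1 and -0.33 at day 3. In the comparison of day 5 with day 1, where 3.33% of all probe sets were called, ALDOC and PFKFB2 passed, both lower at day 5. The groups did not overlap for 8 genes there, 2 higher and 6 lower, or 25.8% against 16.1% of all probe sets. The F test of any change from day 0 called ALDOC, PFKFB2 and PDK1 (9.68% of the 31 genes), with 3.73% of all probe sets called.

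**Figure D1:**
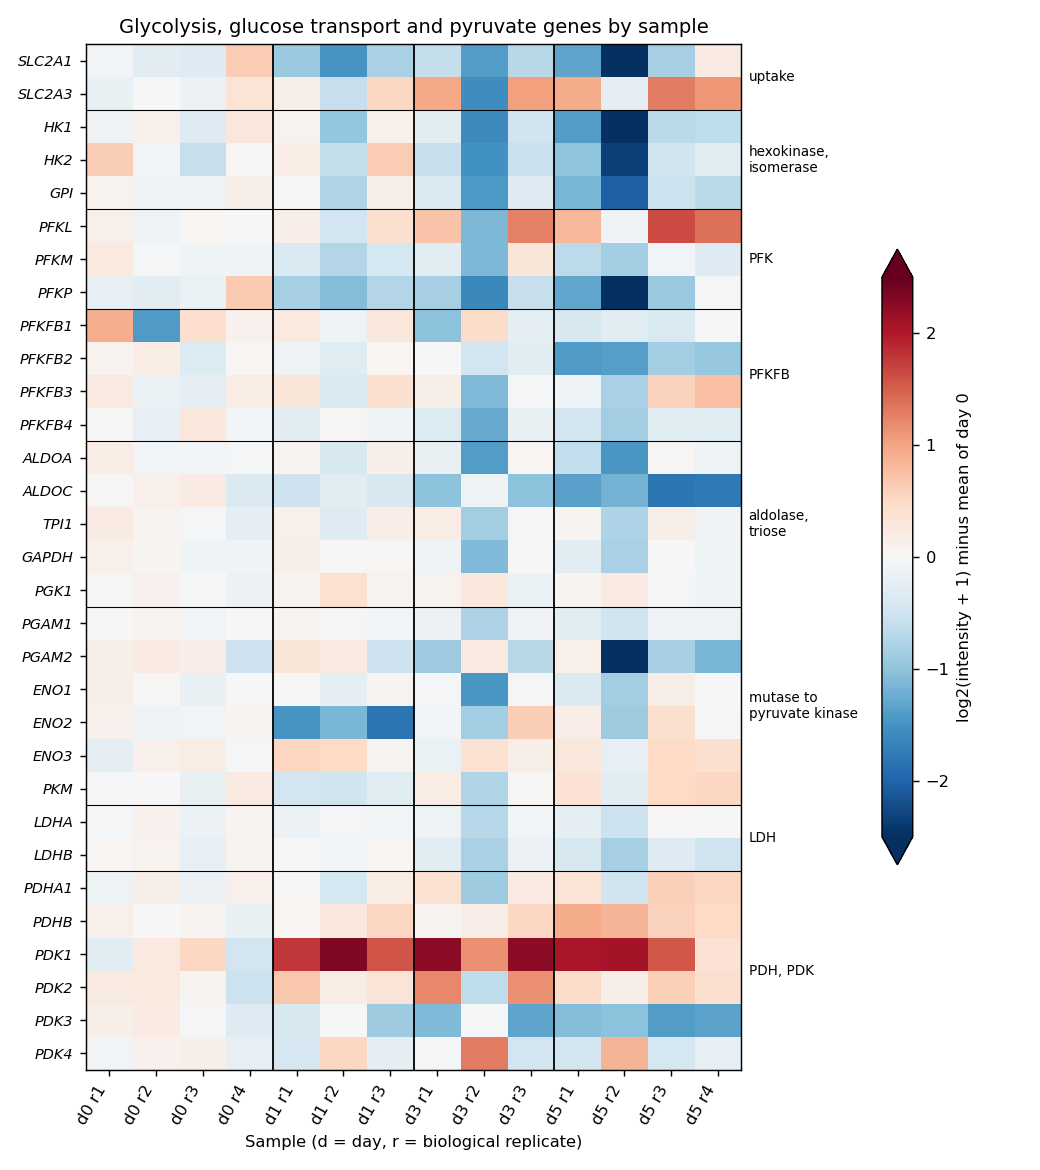
Heat map of the 31 measured genes (rows, grouped by step) in the 14 biological samples (columns), coloured by log2(intensity + 1) minus the gene's mean at day 0. PDK1 is high in all samples of days 1 and 3, ALDOC, PFKFB2 and PDK3 are low in all 4 samples of day 5, and the columns of day 3 replicate 2 and day 5 replicate 2 are low in most rows.

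Replicate 2 of the activin days read low for most of the pathway. In day 3 replicate 2, 23 of the 31 genes had the lowest value of their group, and in day 5 replicate 2 also 23, against 44.9% and 39.2% of all probe sets. In day 1 replicate 2 it was 19 genes, against 42.2% of all probe sets. The median distance of the 31 genes from the mean of the other samples of the day was -0.25, -0.94 and -0.69 in replicate 2 of days 1, 3 and 5, while over all probe sets it was 0.01, 0.04 and 0.00. Over the 788 probe sets with a mean of at least 12, as for 11 of the 31 genes, it was 0.03, -0.09 and -0.07. Not every gene took part: in day 3 replicate 2, ALDOC, PDK3, PDK4, PGK1, PGAM2, ENO3 and PFKFB1 lay above both other samples of the day. Without replicate 2 of its day, the median change of the 31 genes from day 0 was 0.07 at day 1, -0.08 at day 3 and -0.17 at day 5. The cause was not tested.

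The glucose transporters SLC2A1 and SLC2A3 (GLUT1 and GLUT3), which admit glucose along its gradient, had estimates of opposite sign at day 5. SLC2A1 measured 12.54, 12.34, 12.27 and 13.24 in the 4 samples of day 0, 11.68, 11.12 and 11.79 at day 1, 12.01, 11.19 and 11.89 at day 3, and 11.27, 9.82, 11.76 and 12.80 at day 5. All samples of days 1 and 3 lay below all of day 0, and at day 5 replicate 4 lay within the day 0 range. None of its differences passed: -1.07 ± 0.54 at day 1, -0.90 ± 0.54 at day 3 and -1.19 ± 0.50 at day 5 (limma adjusted p = 0.899, 0.721 and 0.235). The probe set shared by SLC2A3 and SLC2A14 measured 13.43, 13.60, 13.48 and 13.96 at day 0, 13.76, 13.05 and 14.14 at day 1, 14.58, 12.06 and 14.64 at day 3, and 14.54, 13.40, 14.89 and 14.71 at day 5. Its replicate 2 was the lowest sample of each activin day, and the remaining samples of days 3 and 5 all lay above day 0. The difference at day 5 was 0.77 ± 0.52 (adjusted p = 0.533) with all samples and 1.09 without day 3 replicate 2 and day 5 replicate 2 (adjusted p = 0.0183). With either of these samples left out alone the difference did not pass. A second probe set of the same gene pair gave 0.78 at day 5.

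Hexokinase, which phosphorylates glucose on entry, and glucose-6-phosphate isomerase, GPI, which turns the product into fructose 6-phosphate, had no call among their 3 genes, and all 3 estimates were below 0 at days 3 and 5. HK1, the hexokinase of most tissues, measured 11.47, 11.68, 11.22 and 11.83 at day 0, 11.64, 10.59 and 11.68 at day 1, 11.27, 9.95 and 11.05 at day 3, and 10.16, 8.50, 10.87 and 10.92 at day 5. All 4 samples of day 5 lay below all of day 0, replicate 2 by the most, and the difference of -1.44 ± 0.50 did not pass (adjusted p = 0.128). GPI averaged 11.45 ± 0.68 at day 5 (SD, n = 4) and 12.55 ± 0.14 at day 0 (n = 4), again with no overlap, a difference of -1.10 ± 0.36 (adjusted p = 0.107). HK2, the inducible hexokinase, averaged 8.58 ± 0.92 at day 5 and 9.61 ± 0.49 at day 0, and its groups overlapped (-1.03 ± 0.45, adjusted p = 0.256).

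Phosphofructokinase, the committing step, is built from the subunits PFKL (liver type), PFKM (muscle type) and PFKP (platelet type), and the estimates for PFKL and PFKP had opposite signs. PFKP measured 11.12, 11.03, 11.16 and 11.98 at day 0, 10.49, 10.25 and 10.59 at day 1, 10.49, 9.71 and 10.74 at day 3, and 10.03, 8.57, 10.40 and 11.28 at day 5. Every sample of days 1 and 3 lay below day 0, and at day 5 only replicate 4 lay within its range. Its differences were -0.88 ± 0.51 at day 1, -1.01 ± 0.51 at day 3 and -1.26 ± 0.47 at day 5, and none passed (adjusted p = 1.00, 0.640 and 0.166). Without day 5 replicate 4 the PFKP difference at day 5 was -1.66 and passed (limma adjusted p = 0.0463). PFKL, chosen here after its values were seen, measured 9.96, 9.71, 9.88 and 9.80 at day 0, 10.01, 9.36 and 10.24 at day 1, 10.55, 8.71 and 11.10 at day 3, and 10.66, 9.74, 11.46 and 11.22 at day 5. Replicate 2 was the low sample of each activin day, and replicates 1, 3 and 4 of day 5 lay above all samples of day 0. The difference at day 5 was 0.93 ± 0.48 (adjusted p = 0.364), and 1.28 without day 3 replicate 2 and day 5 replicate 2 (adjusted p = 0.00983). The PFKL difference did not pass with either of these samples left out alone. PFKM averaged 10.09 ± 0.19 at day 1 (n = 3) and 10.60 ± 0.17 at day 0 (n = 4) without overlap (-0.51 ± 0.31, adjusted p = 1.00), while a second probe set shared by SENP1 and PFKM gave 0.58 in the same comparison.

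The differences PFKL minus PFKP and SLC2A3 minus SLC2A1 within a sample, each set to an average of 0 at day 0, were higher in all 4 samples of day 5 than in any sample of day 0. For PFKL minus PFKP the value was 2.12, 2.66, 2.55 and 1.42 in the 4 samples of day 5, against 0.32, 0.16, 0.21 and -0.69 at day 0. For SLC2A3 minus SLC2A1 it was 2.25, 2.56, 2.11 and 0.89 at day 5, against -0.13, 0.25, 0.18 and -0.30 at day 0. In both pairs replicate 2 of day 5 had the largest value of the day and replicate 4 the smallest. These pairs were chosen after the values were seen, so no test is given.

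**Figure D2:**
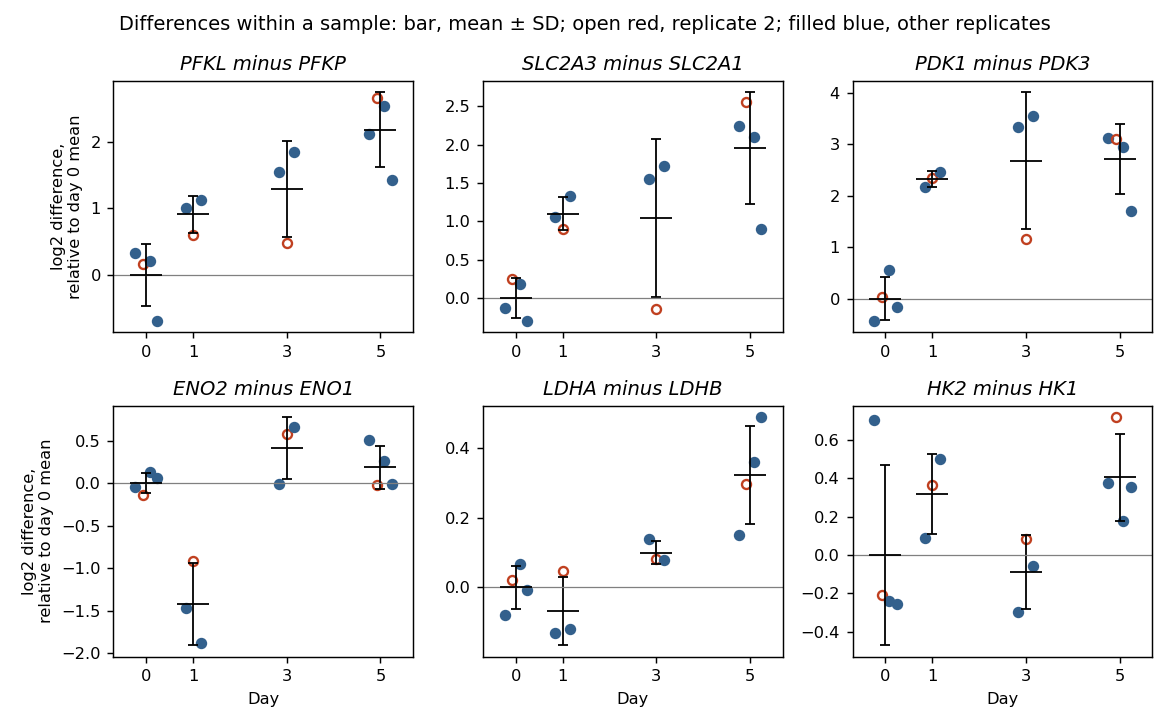
Difference between 2 genes of 1 step within each sample, in log2 units relative to the mean difference at day 0, against day. Points are biological samples (open red, replicate 2), and bars are the group mean ± SD; PFKL minus PFKP and SLC2A3 minus SLC2A1 lie above all day 0 samples in all 4 samples of day 5, and ENO2 minus ENO1 lies below them in all 3 samples of day 1.

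The PFKFB enzymes make and break fructose 2,6-bisphosphate, a potent activator of phosphofructokinase, and 1 of the 4 was called. PFKFB2, known as the heart-type enzyme, measured 8.58, 8.68, 8.15 and 8.54 at day 0, 8.37, 8.18 and 8.53 at day 1, 8.51, 8.02 and 8.22 at day 3, and 7.06, 7.12, 7.62 and 7.54 at day 5. Days 0, 1 and 3 overlapped, and the 4 samples of day 5 lay below every sample of the other days. PFKFB2 fell by 1.15 ± 0.22 against day 0 (limma adjusted p = 0.00786) and by 1.02 ± 0.24 against day 1 (adjusted p = 0.032). The call against day 0 held when any 1 of the 14 samples was left out (adjusted p from 0.00378 to 0.0338), and the call against day 1 was lost in 6 of 14 such fits (up to 0.141), those without day 0 replicate 1, any day 1 sample or day 5 replicate 1 or 2. PFKFB4, prominent in testis, averaged 7.49 ± 0.27 at day 5 and 7.98 ± 0.20 at day 0 without overlap, and did not pass (-0.49 ± 0.25, adjusted p = 0.374). PFKFB3, the form common in proliferating cells, differed by 0.09 ± 0.37 at day 5 and PFKFB1, the liver form, by -0.26 ± 0.44.

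Among the aldolases and the triose steps, ALDOC was called and the other 4 genes were not. Aldolase cuts fructose 1,6-bisphosphate into triose phosphates, and ALDOC is the form best known from brain. ALDOC measured 10.24, 10.33, 10.41 and 9.85 at day 0, 9.68, 9.93 and 9.81 at day 1, 9.19, 10.08 and 9.19 at day 3, and 8.85, 9.03, 8.40 and 8.45 at day 5. Day 1 overlapped only the lowest sample of day 0, day 3 replicate 2 lay within the day 0 range, and all of day 5 lay below every other sample. ALDOC fell by 1.53 ± 0.25 at day 5 against day 0 (adjusted p = 0.00363) and by 1.12 ± 0.27 against day 1 (adjusted p = 0.0418). The call against day 0 held in all 14 fits that left out a sample (adjusted p from 0.000536 to 0.0162), and that against day 1 was lost in 10 of them (up to 0.136) and held without day 0 replicate 4, day 3 replicate 2 or 3, or day 5 replicate 2. At day 3 the difference was -0.72 ± 0.27 (adjusted p = 0.422). Without day 3 replicate 2, which leaves 2 samples there, it was -1.02 (adjusted p = 0.0468).

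The promoter of ALDOC is shown because this gene had the lowest adjusted p of the pathway, and the letters ACGTG are in capitals there because they form the core of sites bound by hypoxia-inducible factors. The window is the 250 bases before the RefSeq start in GRCh38.p14, chr17:28576896-28577145 on the minus strand, written along the gene with either strand's reading (ACGTG or CACGT) in capitals.
ALDOC: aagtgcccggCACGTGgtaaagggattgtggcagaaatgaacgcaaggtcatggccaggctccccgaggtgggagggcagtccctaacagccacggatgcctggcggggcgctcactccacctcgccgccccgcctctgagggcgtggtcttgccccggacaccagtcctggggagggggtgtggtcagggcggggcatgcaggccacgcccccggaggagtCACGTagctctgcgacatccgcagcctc
It held 3 matches, 2 of which are both readings of 1 CACGTG, the letters of the E-box that MYC proteins bind. Over all genes with such a window, 21.7% (5935 of 27305) held ACGTG, and of the 30 genes of the pathway with a window 17 did (56.7%), some of them with several windows. Counted by window it was 20 of 60 for the pathway (33.3%) and 18.5% of all windows. CACGTG stood in the windows of 8 of the 30 genes (26.7%), against 7.73% of all genes, and each CACGTG also counts as ACGTG. Counted by window, CACGTG stood in 8 of 60 (13.3%), against 6.34% of all windows. A match describes letters only and does not show that a factor binds.

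The remaining genes of the aldolase and triose steps gave no call. ALDOA, the aldolase of muscle and most cells, averaged 12.70 ± 0.66 at day 5 and 13.24 ± 0.13 at day 0 (-0.54 ± 0.36, adjusted p = 0.522), and its lowest day 5 sample was replicate 2. Triose phosphate isomerase (TPI1) differed by -0.16 ± 0.28 and GAPDH, which makes NADH and is a common loading control, by -0.30 ± 0.26. GAPDH measured 13.48 in day 3 replicate 2 and 13.75 in day 5 replicate 2, below all the other 12 samples, which ran from 14.29 to 14.72. PGK1, the first enzyme of the pathway to make ATP, differed by 0.02 ± 0.18 at day 5, and its values over all 14 samples ran from 12.84 to 13.38.

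**Figure D3:**
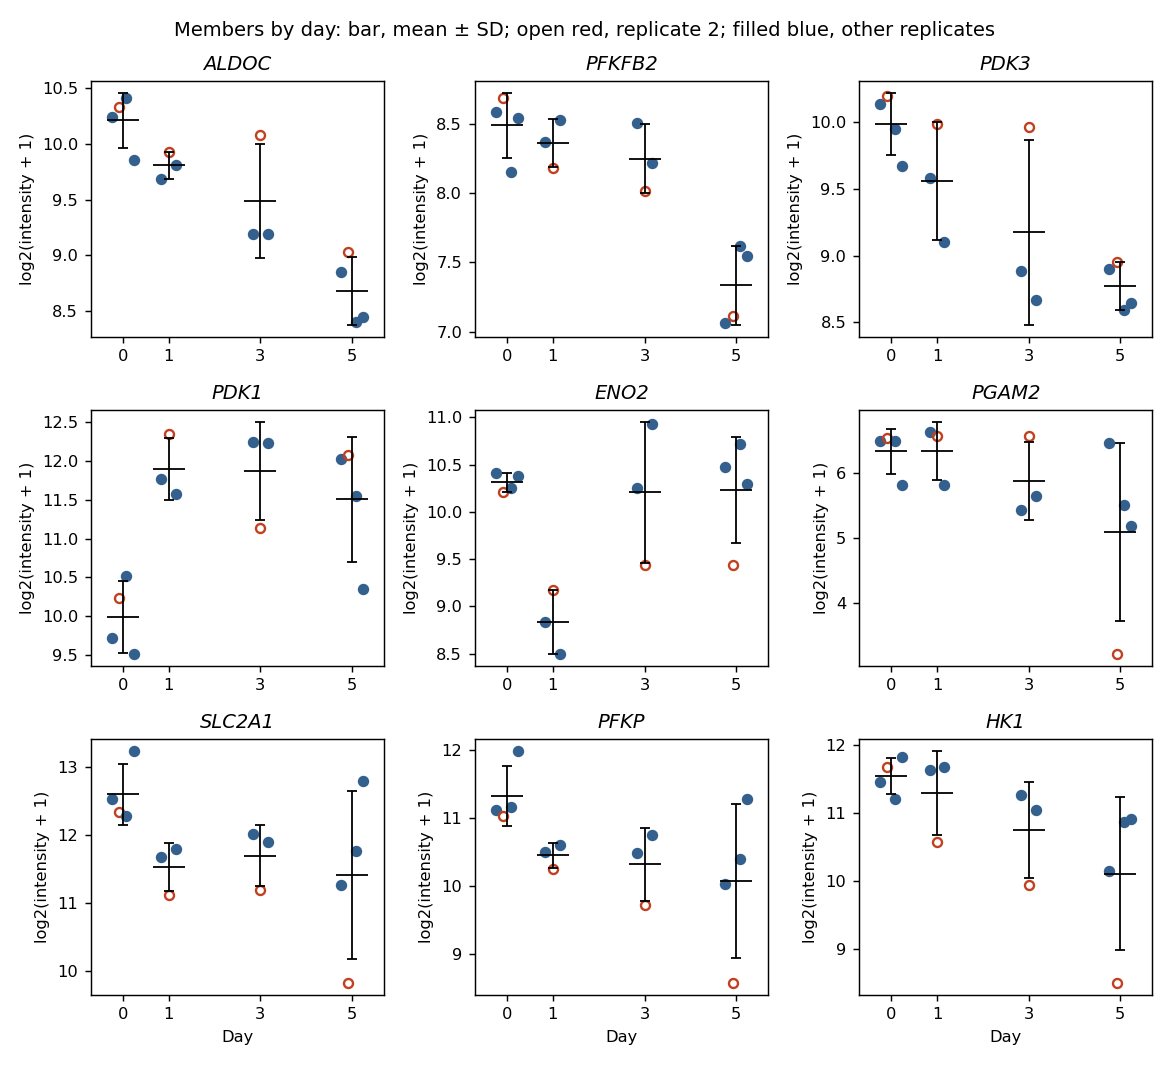
log2(intensity + 1) against day for 9 genes, with a point for each biological sample (open red, replicate 2) and bars for the group mean ± SD. ALDOC, PFKFB2 and PDK3 lie below all day 0 samples in the 4 samples of day 5, PDK1 lies above them in all samples of days 1 and 3, and ENO2 is low at day 1.

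From phosphoglycerate mutase to pyruvate kinase no gene passed, and the neuron-type enolase ENO2 had the largest estimates. Enolase removes water from 2-phosphoglycerate. ENO2 measured 10.41, 10.21, 10.25 and 10.38 at day 0, 8.84, 9.17 and 8.49 at day 1, 10.25, 9.44 and 10.93 at day 3, and 10.47, 9.43, 10.72 and 10.29 at day 5. All 3 samples of day 1 lay below every sample of the other days, and replicate 2 was the low sample of days 3 and 5. The differences were -1.48 ± 0.36 at day 1 against day 0 (adjusted p = 0.234) and 1.39 ± 0.36 at day 5 against day 1 (adjusted p = 0.0567). With day 3 replicate 2 and day 5 replicate 2 left out, both passed (-1.48 with adjusted p = 0.0199, and 1.66 with adjusted p = 0.0019). The difference at day 1 did not pass with either of these samples left out alone. The difference between days 5 and 1 also passed with a pseudocount of 16 (0.044), without the dimmest 25% of probe sets (0.0392), with a variance trend (0.0483) and in 3 of the fits that left out a single sample (adjusted p = 0.0178 to 0.0384). The mean of 4 neuron markers was also low at day 1, 5.54 to 6.57, against 6.65 to 7.33 at day 0. These markers did not move together. At day 1 against day 0 STMN2 differed by -2.22, SYT1 by -1.06, ELAVL4 by -0.27 and SNAP25 by 0.17. STMN2 was 3.13 higher at day 5 than at day 1 (limma adjusted p = 0.044). In that comparison ELAVL4 differed by 0.26, SNAP25 by -0.19 and SYT1 by -0.77, and none of the latter passed. Their part in the ENO2 result was not tested. ENO1, the enolase of most cells, differed by -0.06 ± 0.34 at day 1 and -0.27 ± 0.32 at day 5. Within samples, ENO2 minus ENO1 was -1.46, -0.91 and -1.88 at day 1, against -0.05, -0.14, 0.13 and 0.06 at day 0 on the scale set to 0 there.

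The promoter of ENO2, shown for its dip at day 1, held ACGTG once in the 250 bases before the start (GRCh38.p14, chr12:6914330-6914579, plus strand, the match in capitals).
ENO2: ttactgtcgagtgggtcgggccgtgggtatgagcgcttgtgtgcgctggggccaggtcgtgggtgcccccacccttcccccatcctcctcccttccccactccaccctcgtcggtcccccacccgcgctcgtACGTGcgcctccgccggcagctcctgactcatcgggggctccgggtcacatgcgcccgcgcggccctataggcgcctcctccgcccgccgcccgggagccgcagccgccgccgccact

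PGAM2, the muscle form of phosphoglycerate mutase, which moves the phosphate of 3-phosphoglycerate, was dim and scattered. It measured 6.49, 6.55, 6.50 and 5.81 at day 0, 6.63, 6.57 and 5.82 at day 1, 5.43, 6.57 and 5.64 at day 3, and 6.47, 3.21, 5.51 and 5.19 at day 5. The groups overlapped, and its lowest value was day 5 replicate 2. The difference of -1.24 ± 0.59 between days 5 and 1 did not pass (adjusted p = 0.363). The probe set of PGAM1 and PGAM4, the common mutase, averaged 13.37 ± 0.18 at day 5 and 13.62 ± 0.05 at day 0 without overlap (-0.25 ± 0.20, adjusted p = 0.606). PKM, the pyruvate kinase that ends the pathway, averaged 13.42 ± 0.17 at day 0, 13.00 ± 0.10 at day 1 and 13.70 ± 0.36 at day 5. All samples of day 5 lay above those of day 1, a difference of 0.70 ± 0.27 that did not pass (adjusted p = 0.233). It was 0.88 with both low replicates left out (adjusted p = 0.0105), and did not pass with either left out alone. The muscle enolase ENO3 differed by 0.24 ± 0.23 at day 5 against day 0.

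Lactate dehydrogenase turns pyruvate into lactate and back, and neither subunit gene passed. LDHB, the subunit that favours pyruvate, measured 13.50, 13.07, 13.57 and 13.39 at day 5, against 13.95, 13.97, 13.68 and 13.97 at day 0. The groups did not overlap, and the difference of -0.51 ± 0.21 did not pass (adjusted p = 0.207). LDHA, the subunit that favours lactate, averaged 13.56 ± 0.26 at day 5 and 13.75 ± 0.11 at day 0 (-0.19 ± 0.21, adjusted p = 0.728).

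Pyruvate dehydrogenase, which commits pyruvate to the mitochondrion, and its 4 kinases held 2 of the 4 calls at day 5, in opposite directions. PDK1 measured 9.72, 10.23, 10.52 and 9.51 at day 0, 11.77, 12.34 and 11.58 at day 1, 12.24, 11.14 and 12.23 at day 3, and 12.03, 12.07, 11.55 and 10.36 at day 5. Every sample of days 1 and 3 lay above every sample of day 0, and at day 5 replicate 4 lay within the day 0 range. PDK1 rose by 1.51 ± 0.41 at day 5 against day 0 (adjusted p = 0.0497), while differences of 1.90 ± 0.44 at day 1 (adjusted p = 0.189) and 1.87 ± 0.44 at day 3 (adjusted p = 0.178) did not pass. The call at day 5 was lost in 12 of 14 fits that left out a sample (adjusted p from 0.0107 to 0.148), all but those without day 3 replicate 2 or day 5 replicate 4. It was also lost with day 3 replicate 2 and day 5 replicate 2 left out together (1.32, adjusted p = 0.0557) and in a fit of days 0 and 5 alone (adjusted p = 0.0782). At day 3 the difference passed without replicate 2, which leaves 2 samples there (2.24, adjusted p = 0.0203). Day 5 replicate 4 also had the highest SLC2A1 and PFKP values of its day and a fibroblast marker mean of 8.48, against 7.20 to 7.56 in the other day 5 samples. Day 0 replicate 4 likewise had the lowest PDK1 (9.51) and the highest SLC2A1 (13.24) and PFKP (11.98) of its day. Its fibroblast marker mean was 7.35, against 6.85 to 7.26 in the other day 0 samples. Over all probe sets, the deviations of replicate 4 correlated by 0.512 between days 0 and 5. The cause was not tested.

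PDK3, a kinase of the same complex, measured 10.14, 10.19, 9.95 and 9.67 at day 0, 9.59, 9.99 and 9.10 at day 1, 8.89, 9.97 and 8.67 at day 3, and 8.90, 8.95, 8.59 and 8.64 at day 5. The samples of day 5 all lay below day 0, and replicate 2 was the highest sample of days 1, 3 and 5. PDK3 fell by 1.22 ± 0.29 at day 5 (adjusted p = 0.029), and the call was lost in 6 of 14 fits that left out a sample (up to 0.0939), namely day 0 replicate 1, 2 or 3 or day 5 replicate 1, 3 or 4. At day 3 it was -0.81 ± 0.32 (adjusted p = 0.451), and -1.21 with the 2 samples left without replicate 2 (adjusted p = 0.0317). Within samples PDK1 minus PDK3, set to 0 on average at day 0, was 2.17, 2.35 and 2.47 at day 1, 3.34, 1.16 and 3.55 at day 3, and 3.12, 3.11, 2.95 and 1.70 at day 5, above all 4 day 0 samples, which ran from -0.43 to 0.56.

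The promoters of both kinases are shown because their genes were called in opposite directions. The capitals mark ACGTG or CACGT in the 250 bases before the start in GRCh38.p14, at chr2:172555840-172556089 on the plus strand for PDK1 and chrX:24465036-24465285 on the plus strand for PDK3.
PDK1: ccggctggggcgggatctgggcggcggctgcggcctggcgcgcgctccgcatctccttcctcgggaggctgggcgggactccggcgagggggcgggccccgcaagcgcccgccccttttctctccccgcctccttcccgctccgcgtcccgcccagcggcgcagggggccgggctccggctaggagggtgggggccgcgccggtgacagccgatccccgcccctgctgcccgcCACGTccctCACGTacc
PDK3: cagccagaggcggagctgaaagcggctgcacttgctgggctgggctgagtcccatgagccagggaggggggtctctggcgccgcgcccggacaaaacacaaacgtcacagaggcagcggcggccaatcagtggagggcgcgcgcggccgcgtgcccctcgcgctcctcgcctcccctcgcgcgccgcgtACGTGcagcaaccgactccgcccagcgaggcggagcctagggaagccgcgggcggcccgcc
PDK1 held 2 matches in this window and none in its other annotated window, and PDK3 held 1. PFKFB2, also called at day 5, had no promoter window.

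The other kinases and the enzyme itself were not called at day 5. PDHB, the beta subunit of the enzyme's first component, measured 11.37, 11.24, 11.32 and 11.06 at day 0, 11.30, 11.50 and 11.77 at day 1, 11.31, 11.42 and 11.77 at day 3, and 12.19, 12.11, 11.82 and 11.75 at day 5. It was the only gene of the pathway whose day 5 samples all lay above day 0, replicate 2 included, and the difference of 0.72 ± 0.20 did not pass (adjusted p = 0.0592). The same difference passed without day 3 replicate 2 (adjusted p = 0.0393), without the dimmest 25% of probe sets (0.0387), with a pseudocount of 16 (0.0424) and with a variance trend (0.035). PDHA1, the alpha subunit, differed by 0.25 ± 0.32, and the probe set of PDK2 and SAMD14 by 0.40 ± 0.36, while second probe sets gave -0.08 for PDHA1 with MAP3K15 and -0.06 for PDK2 with SAMD14. At day 3 the PDK2 probe set differed from day 0 by 0.57 with all samples. With the 2 samples left without day 3 replicate 2 it was 1.17 higher (adjusted p = 0.0336). The second PDK2 probe set gave -0.06 at day 3 with all samples, where replicate 2 measured 5.73 and the others 6.88 and 7.61. PDK4, the kinase known for its rise on fasting, measured 6.05, 6.82 and 6.38 in replicate 2 of days 1, 3 and 5, the highest of each day, and from 5.05 to 5.68 in the other 11 samples.

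**Figure D4:**
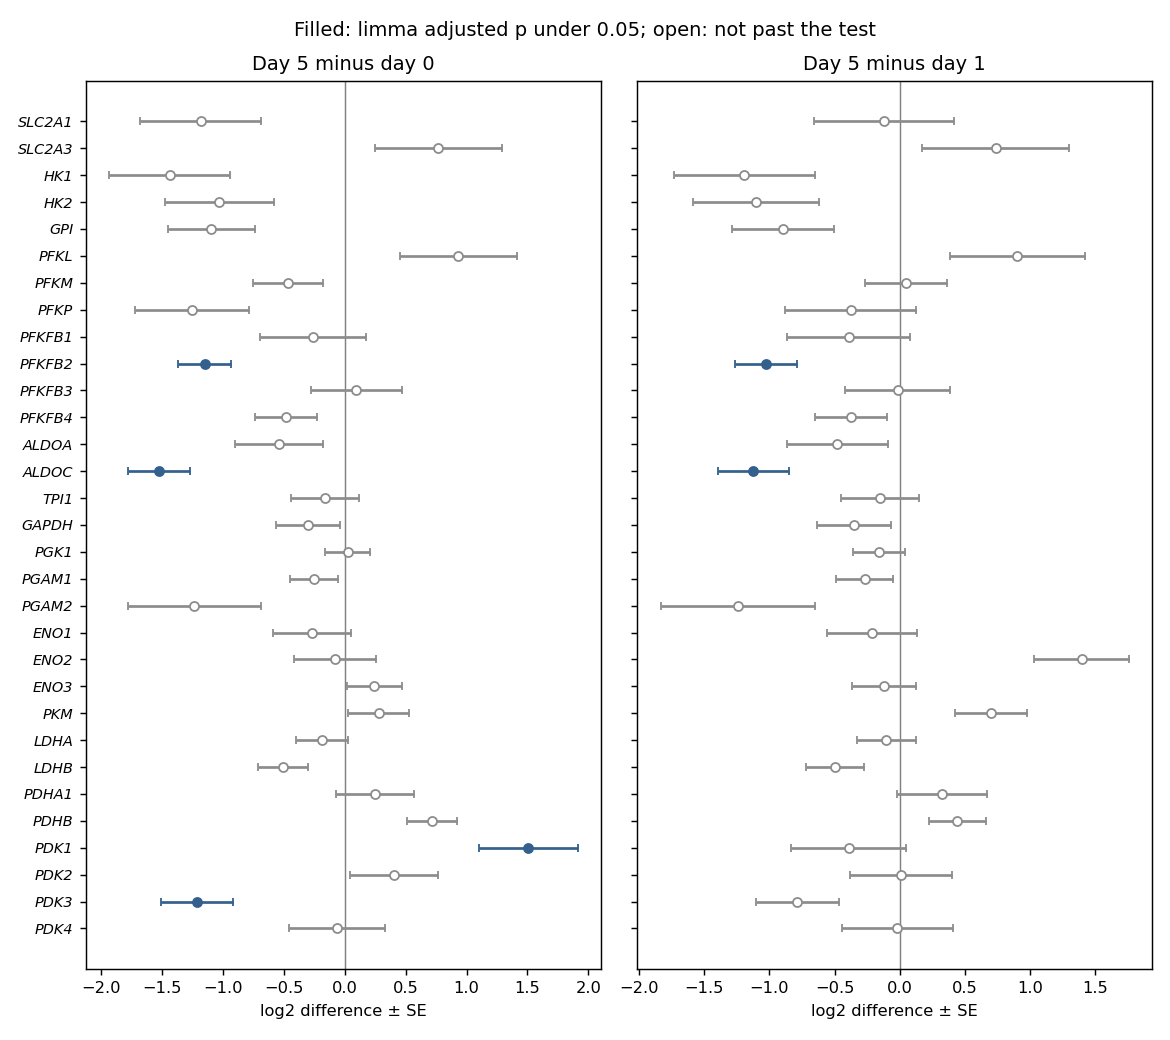
log2 difference ± SE of each of the 31 genes, day 5 minus day 0 on the left and day 5 minus day 1 on the right, filled where the limma adjusted p was under 0.05. ALDOC, PFKFB2 and PDK3 lie below 0 and PDK1 above 0 on the left, and ALDOC and PFKFB2 lie below 0 on the right.

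Neighbouring pathways were counted from lists written for the comparison, using probe sets of 1 symbol, and their counts at day 5 stand beside the 5.46% of all probe sets called there. Of 19 other glycolysis and pyruvate genes, 2 passed at day 5 against day 0: ADPGK, an ADP-dependent glucokinase, was higher (0.68 ± 0.17, adjusted p = 0.0337) and LDHD, the mitochondrial D-lactate dehydrogenase, was lower (-1.05 ± 0.27, adjusted p = 0.0406). Of 7 gluconeogenesis genes 1 passed, FBP1, the bisphosphatase that runs the phosphofructokinase step backwards, which averaged 4.95 ± 0.33 at day 5 and 7.05 ± 0.29 at day 0 (-2.10 ± 0.32, adjusted p = 0.00201). Of 13 genes of the tricarboxylic acid cycle 2 passed, both lower: OGDH, a subunit of the oxoglutarate dehydrogenase complex (-1.10 ± 0.27, adjusted p = 0.0287), and IDH2, the mitochondrial NADP-linked isocitrate dehydrogenase (-1.09 ± 0.21, adjusted p = 0.00833). None of 10 other glucose transporters and none of 6 pentose phosphate genes passed in the limma fit, where 2 and 3 had an unadjusted p under 0.05.

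Of 13 hypoxia-responsive genes outside glycolysis, 3 (against 5.46% of all probe sets called) were higher at day 5 than at day 0 and none lower: BNIP3 (2.12 ± 0.30, adjusted p = 0.00129), MXI1 (1.69 ± 0.25, adjusted p = 0.00158) and P4HA2 (0.98 ± 0.22, adjusted p = 0.0202). The median of that list relative to day 0 was 0.56, 0.61, 0.62 and 0.74 in the 4 samples of day 5, so replicate 2 did not stand apart, whereas the median of the 31 glycolytic genes was -0.28, -0.82, -0.05 and -0.09. At day 3 the list stood at 0.30, 0.27 and 0.38, against -0.13, -0.86 and -0.07 for the glycolytic genes. Of 10 regulators of glycolytic genes 2 passed at day 5, both lower: MYCN, a MYC family factor (-1.25 ± 0.30, adjusted p = 0.0258), and LIN28B, an RNA-binding protein that blocks let-7 (-0.77 ± 0.19, adjusted p = 0.0304).

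**Figure D5:**
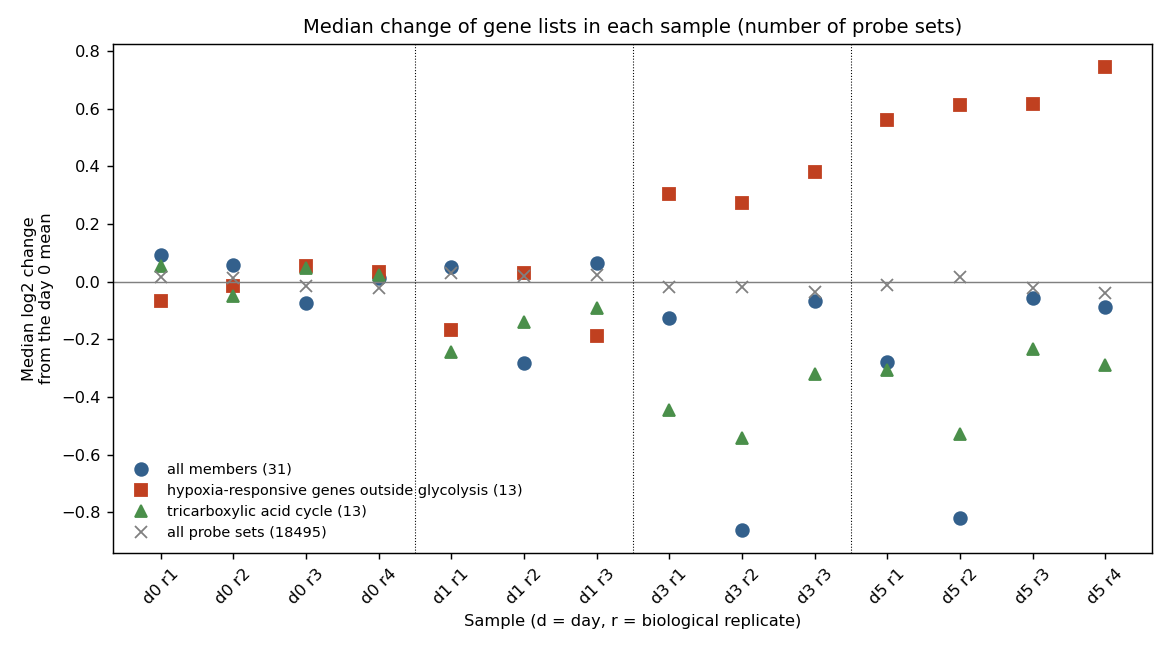
Median log2 change from the day 0 mean in each of the 14 samples for the 31 glycolytic genes, 13 hypoxia-responsive genes, 13 tricarboxylic acid cycle genes and all 18495 probe sets. The glycolytic genes are lowest in replicate 2 of days 3 and 5 (-0.86 and -0.82), while the hypoxia-responsive genes lie between 0.56 and 0.74 in all 4 samples of day 5.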

How the data were processed

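RNA from 14 biological samples was measured on 16 arrays. The deposited table gives 1 intensity per probe set and array, on a linear scale, for 18495 probe sets. Values run from -0.273 to 30307.1, and 636 are below 0. The genome build in the submitters' processing notes is hg18. How the authors summarised and normalized the arrays is not given in the sources used here. All arrays have like medians and the same lowest and highest value, so the table looks quantile normalized, which was read from the values alone. Arrays have no read depth, and their number limits the precision.

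The scale used is log2(value + 1), and the 2 technical arrays of replicate 4 at days 0 and 5 were averaged (r = 0.981 and 0.975 between them). Gene symbols came from the platform annotation (14577 probe sets with 1 symbol, 2849 with several, 1069 with none). The comparisons were fitted in R 4.3.3 with limma 3.58.1 (lmFit, eBayes) on the day alone, all 14 samples sharing 1 spread (10 residual and 3 prior degrees of freedom) and Benjamini-Hochberg adjustment over all probe sets at 0.05. No probe set was filtered out. The code was tested on simulated data.

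The 33 genes and all gene lists were chosen with earlier results of these data known. Values in every sample are given for genes past any test, for the 3 largest differences of each comparison and for ALDOC. From other lists up to 3 genes past the test are named, or the 2 largest changes where none passed; other genes named were chosen after their values were seen. The alternatives were a pseudocount of 16, quantile normalization, leaving out the dimmest 25% of probe sets, the sample as a random block over all 16 arrays, a block for the replicate number, a fit restricted to both groups of a comparison, a variance trend with robust estimation, other choices of probe set, leaving out each sample in turn, and leaving out replicate 2 of both days 3 and 5. Promoter sequences came from RefSeq on GRCh38.p14, where 30 of the 33 genes had a window. Promoter matches, tables and plots were made in Python 3.11.15 with numpy 2.4.6, pandas 2.3.3 and matplotlib 3.10.9.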

Additional observations from a re-analysis of the deposited data

Results flagged for a closer look

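In groups of 4 samples, the distance of the highest or lowest sample to its nearest neighbour was set against the range of the group, and a ratio above Dixon's critical value was taken as far from the others. Of 62 groups examined (31 genes at days 0 and 5), 4 went above it, all at day 0, and chance alone gives about 1 in 20 groups. PFKP was high in day 0 replicate 4 (11.98, against 11.03 to 11.16 in the other 3 samples, ratio 0.865). ALDOA was high in day 0 replicate 1 (13.44, against 13.17 to 13.20, ratio 0.875). PGAM2 was low in day 0 replicate 4 (5.81, against 6.49 to 6.55, ratio 0.923). LDHB was low in day 0 replicate 3 (13.68, against 13.95 to 13.97, ratio 0.923). No day 5 group went above the ratio, day 5 replicate 2 included.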

How the results depend on the processing

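Of 2956 differences of single genes recomputed under 24 alternatives, 2779 kept their direction and their side of the threshold, 39 lost and 30 gained a call, 108 uncalled ones changed sign and no called one did. The ALDOC and PFKFB2 calls between days 5 and 0 held under every alternative run. The medians of the 31 genes moved by less than 1 SD (0.277) in all 96 recomputations. This SD is larger than the size of the medians at day 1 (-0.05), at day 5 (-0.26) and in day 5 against day 1 (-0.21). A move as large as those medians would thus not be flagged. With 1 sample left out the median ran from -0.12 to 0.07 at day 1, -0.46 to -0.08 at day 3 and -0.36 to -0.17 at day 5. With day 3 replicate 2 and day 5 replicate 2 left out together, 1, 4 and 6 glycolytic genes were called at day 1, at day 3 and in day 5 against day 1, and 9 by the F test, while all probe sets called numbered 122 at day 1, 1057 at day 3, 1835 at day 5, 1503 in day 5 against day 1 and 2128 by the F test. Fewer samples then carry the spread of these 2, by construction.

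In day 5 against day 1 the glycolytic genes called were 1 with all 16 arrays and 0 in a fit restricted to days 1 and 5, where 398 of all probe sets were called (limma, unadjusted p under 0.05 for 9 genes in the fit reported). The count over all probe sets at day 1 was 17 with a pseudocount of 16, 12 without the dimmest 25% and also 12 with a variance trend, 14 with 16 arrays, 20 with the fit restricted to days 0 and 1 and 0 with the replicate block. At day 3 it was 8 with a pseudocount of 16 and 8 with 16 arrays, 1 with a variance trend, 1 with the replicate block and 0 with the fit restricted to days 0 and 3. The causes were not tested.

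The deviations of same-numbered samples correlated by -0.0633, 0.118, -0.284 and 0.512 between days 5 and 0, by -0.152, 0.513 and 0.427 between days 5 and 1, by 0.0675, 0.302 and -0.107 between days 1 and 0, and by 0.0793, 0.0861 and -0.281 between days 3 and 0. In none of these comparisons did every pair exceed 0.1, and the numbers were not taken as pairs. Among the activin days replicates 2 and 3 correlated by 0.365 to 0.645, and days 1 and 3, which were not compared, gave 0.188 for replicate 1. With the replicate block 8 glycolytic genes were called at day 5, against 4 without it, the added ones being GPI (adjusted p = 0.0246), PFKP (0.0265), SLC2A1 (0.0442) and HK1 (0.0452).

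Leaving out 1 sample at a time, all probe sets called ranged from 0 to 46 at day 1, 0 to 590 at day 3, 549 to 1614 at day 5, 170 to 1130 in day 5 against day 1 and 329 to 1516 by the F test, each highest without day 3 replicate 2. Glycolytic genes called ranged from 0 to 4 at day 3, 2 to 5 at day 5, 0 to 3 in day 5 against day 1 and 0 to 5 by the F test, and stayed at 0 at day 1.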

Other observations

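Between days 5 and 1, which share the base medium and activin, 5 of 13 hypoxia-responsive genes outside glycolysis were higher at day 5 and none lower, where 3.33% of all probe sets were called in either direction, with a list median of 1.14 against -0.06 over all probe sets. ADM, which encodes the vessel-dilating peptide adrenomedullin, averaged 12.05 ± 0.64 at day 5 (n = 4) and 10.11 ± 0.32 at day 1 (n = 3), a difference of 1.95 ± 0.34 (limma adjusted p = 0.00806). At day 0 ADM averaged 11.48 ± 0.29 (n = 4). Its day 1 samples lay below all of day 0 (-1.37 ± 0.34, adjusted p = 0.235), so much of the rise from day 1 was a return towards day 0. BNIP3, a mitophagy receptor, was higher by 1.88 ± 0.32 (adjusted p = 0.00757) and MXI1, a MAX partner that opposes MYC, by 1.61 ± 0.27 (adjusted p = 0.00616).

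None of the other lists had a call in the limma fit at days 1 or 3 or between days 5 and 1, where 0 to 5 genes of a list had an unadjusted p under 0.05. The largest difference of any of their genes at day 1 was PDP1, the phosphatase that undoes the action of the pyruvate dehydrogenase kinases, which averaged 9.14 ± 0.62 at day 1 (n = 3) and 11.03 ± 0.44 at day 0 (n = 4) without overlap (-1.89 ± 0.41, limma adjusted p = 0.151). At day 5 the transketolase TKT of the pentose phosphate pathway averaged 11.88 ± 0.75 and 13.08 ± 0.19 at day 0, also without overlap (-1.20 ± 0.36, adjusted p = 0.0813), and its relative TKTL1 differed by -0.81 ± 0.28 (adjusted p = 0.128). Among the other glucose transporters the largest day 5 differences were -1.12 ± 0.42 for SLC2A10 (adjusted p = 0.170) and -0.95 ± 0.34 for SLC2A4, the insulin-responsive transporter of muscle and fat (adjusted p = 0.155). TKTL1 (5.41 at day 0, 4.60 at day 5) and SLC2A4 (5.99 and 5.04) were dim. Their levels were no higher than the red blood cell marker means, 5.54 to 6.33.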
